A study of Homo sapiens with 21 samples.

Results

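The insulin-like growth factor (IGF) axis was followed here through 10 genes: the 7 binding-protein genes IGFBP1 to IGFBP7 and the 3 receptor genes IGF1R, IGF2R and INSR. The question was where estrogen receptor beta (ER-beta, the product of ESR2) sat around them in MDA-MB-231, a triple-negative breast cancer cell line carrying a doxycycline-inducible, Flag-tagged receptor. All cells received doxycycline at 100 ng/ml for 24 h and then, for 3 h, ethanol as vehicle, 1 nM estradiol, or LY500307, an agonist selective for ER-beta whose dose is 1 nM in the sample titles and 10 nM in the sample characteristics. Chromatin immunoprecipitation with an antibody against Flag, followed by sequencing (ChIP-seq), gave 4 libraries per treatment by the sample labels, where the treatment protocol speaks of triplicates, beside 3 input libraries. The authors deposited 1 list of enriched regions per treatment. A region was counted for a gene when its summit lay within 50 kb of the gene body in GENCODE 44 (hg38). This gave 33 of 26861 estradiol regions, 11 of 10045 LY500307 regions and 2 of 2905 ethanol regions. Because each list stands for a pool of libraries, the values below carry no replicate error, and the treatments are set side by side without a test. The receptor was overexpressed from a transgene in a line that is triple-negative by its label, which limits what the positions say about the native receptor. Transcript levels of the 10 genes were not analysed here.

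As background, IGF1 and IGF2 are growth factors that signal mainly through IGF1R, a receptor tyrosine kinase related to the insulin receptor INSR, and on through the PI3K and AKT kinases. IGF2R, also known as the cation-independent mannose-6-phosphate receptor, takes up IGF2 for degradation in lysosomes. The secreted IGF binding proteins hold the ligands in tissue fluid and blood and so limit or prolong their access to the receptors. In breast cancer cells estrogen receptor and IGF signalling are known to influence each other, and IGFBP4 is a known estrogen-responsive gene. Estrogen receptors bind the estrogen response element (ERE), a palindrome made of the arms GGTCA and TGACC with any 3 bases between them, and also single arms, called half-sites.

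Of the 7 estradiol regions with an ERE at the summit, 6 are shown first, because they carry the DNA element the receptor is known for. An ERE was counted when at most 1 of the 10 arm bases differed in the window reaching 100 bp to each side of the summit, and each of the 7 differed at exactly 1. The 6 sequences are from the plus strand of hg38 with 8 bases on each side. Capitals mark the arm bases that match the palindrome.
IGFBP4, intron 1, chr17:40448860-40448888: cagggcagGGTCAgagTGcCCaagtgcat
IGFBP4, 4.09 kb upstream, chr17:40439327-40439355: agaatccaGGTCAttgTGACactcacact
IGFBP4, exon 1, chr17:40443724-40443752: cctcgggcGGTCAtgcTGcCCctctgcct
IGFBP4 window, in intron 6 of TNS4, chr17:40482536-40482564: gagttcgaGaTCAgccTGACCcacatggt
IGFBP1 and IGFBP3 window, 11.8 kb upstream of IGFBP1, chr7:45876590-45876618: gaatctcaGGTCtctgTGACCtcctggca
IGF2R, intron 1, chr6:159987589-159987617: accatactGGTCAggcTGAtCttgatctc
No ERE at these 33 summits was free of mismatches. A count of 0 of 33 allows a share of up to 9.09% (3 counts of the total), and 1.65% of all estradiol regions held a mismatch-free copy. The 7 with 1 mismatch made up 21.2% (95% Wilson interval 10.7 to 37.8, counting error only), against 13.8% of the whole estradiol list. The IGFBP4 window held 4 of the 7. Outside it there were 3 in 23 regions.

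With estradiol 9 of the 10 genes had a region, the exception being INSR. All protein-coding genes gave a share of 74.5% by the same count. With LY500307 the genes with a region were IGFBP1, IGFBP3, IGFBP4, IGFBP6, IGFBP7, IGF1R and IGF2R, 7 of 10 against 49.2% of all genes. With ethanol they were IGFBP1, IGFBP3 and IGFBP4, 3 of 10 against 22.8%. The lists differ in length. With the 2905 regions of highest fold from each, 4 genes had an estradiol region, 5 an LY500307 region and 3 an ethanol region, so that estradiol no longer had the most. Estradiol and LY500307 differed there only by IGF2R, whose strongest site ranked 3087 with estradiol and 2837 with LY500307, close to the cut. The share of all genes was not counted for lists of this length. The median number of regions per gene was 4 with estradiol, 1 with LY500307 and 0 with ethanol, and over all 20007 protein-coding genes it was 2, 0 and 0. Some of these counts rest on the same regions. The bodies of IGFBP1 and IGFBP3 lie 18.6 kb apart on chromosome 7, and all 6 estradiol regions there count for both genes. IGFBP2 and IGFBP5 lie 7.67 kb apart on chromosome 2 and share 1 estradiol region.

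**Figure D1:**
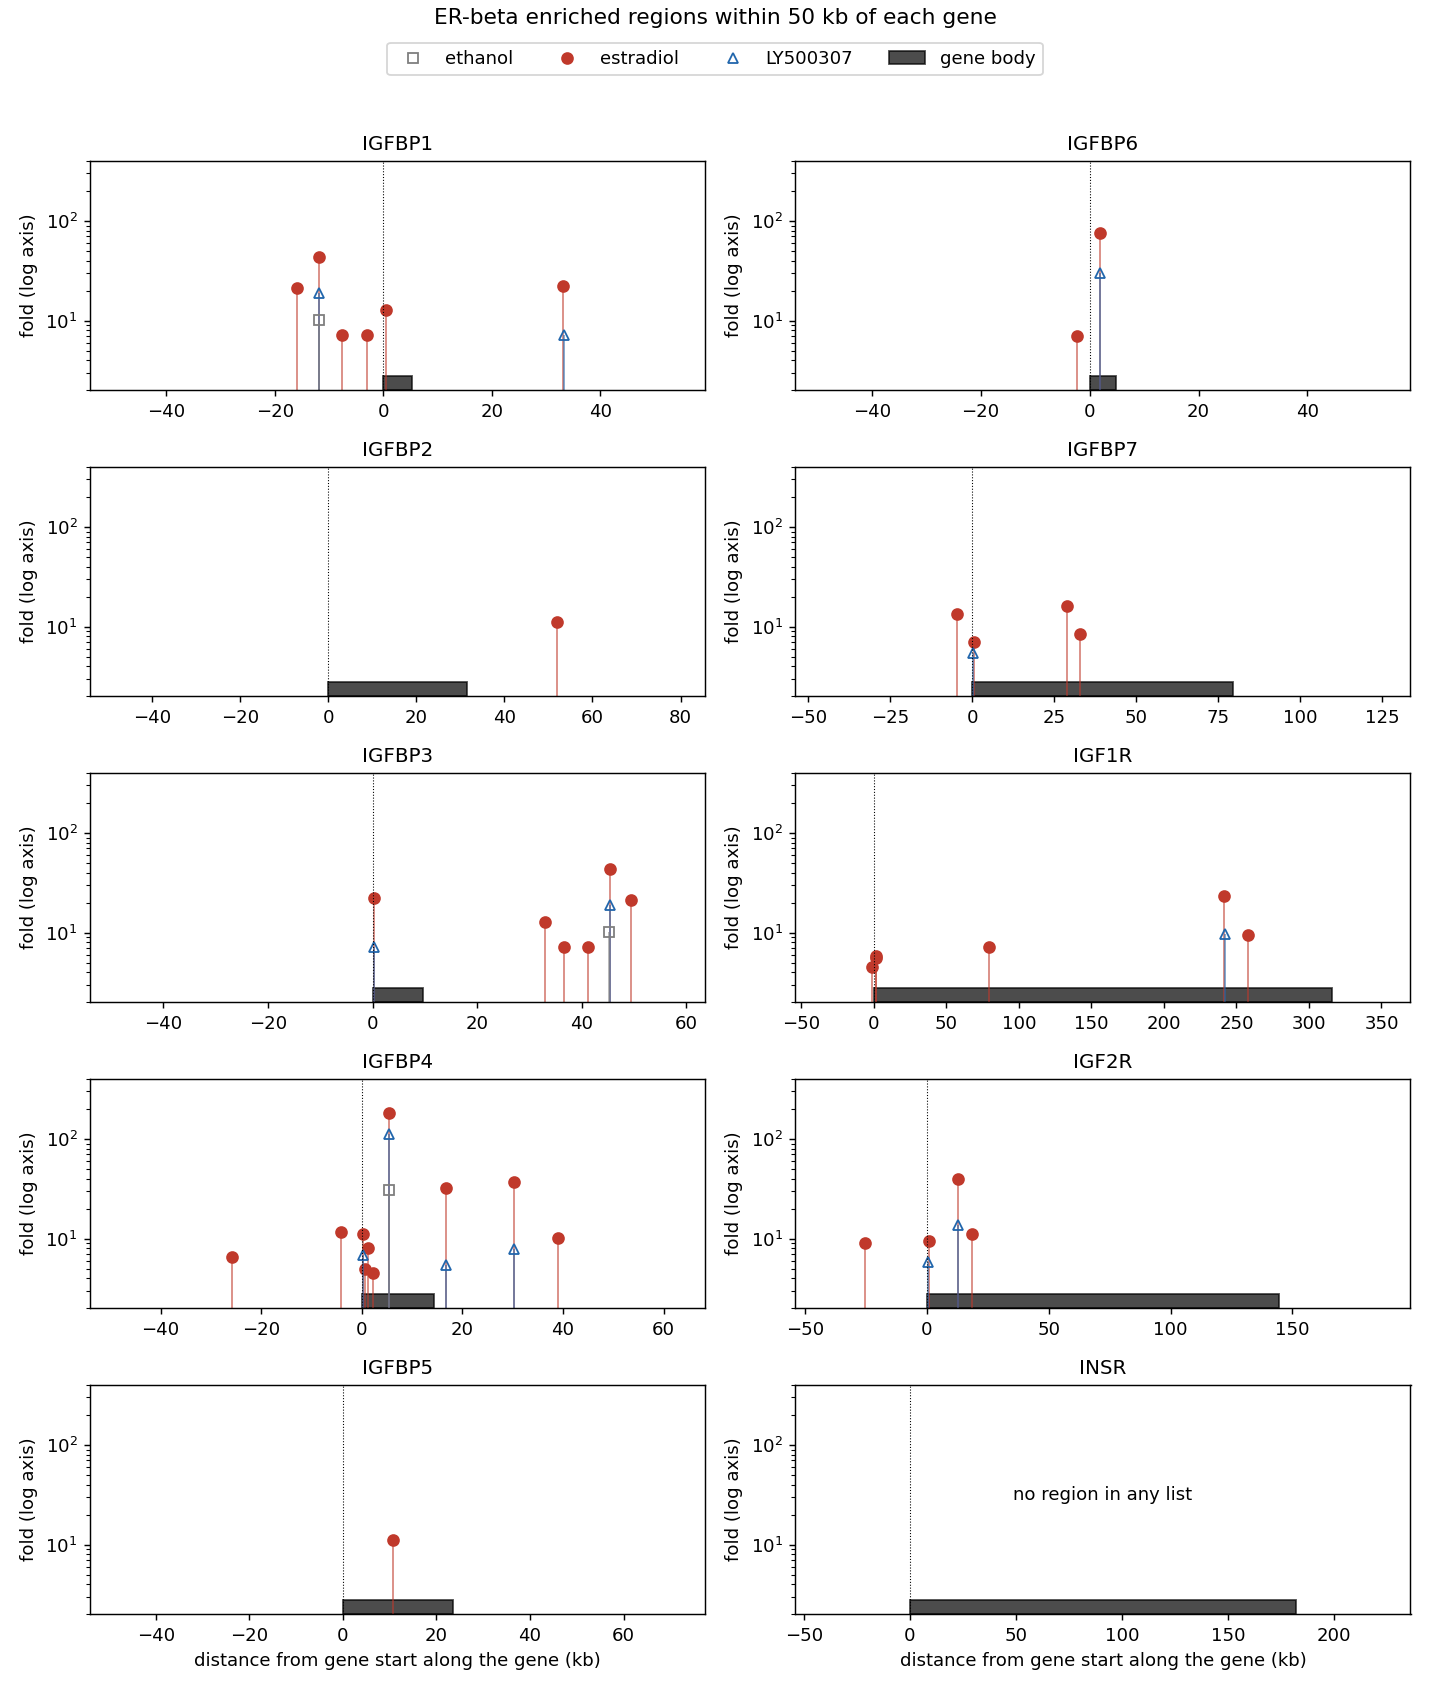
Position of each enriched region (x axis, kb from the gene start in the direction of the gene) and its fold over local background (y axis, log scale) for the 10 genes; filled circles are estradiol, triangles LY500307 and squares ethanol, and the black bar is the gene body. The 10 IGFBP4 regions of the estradiol list span both sides of the gene start, and the INSR panel is empty.

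IGFBP4, which encodes an inhibitory binding protein, had the most regions and the strongest one. Its body lies on chromosome 17 from 40443450 to 40457725, and the estradiol list held 10 regions in its window, the LY500307 list 4 and the ethanol list 1. This is 8.75 estradiol regions per 100 kb of window, a density that 2.02% of protein-coding genes reached, with a median over all genes of 1.28. The strongest region, in intron 1 at 5.38 kb from the gene start, was in all 3 lists. Its fold, the authors' ratio of pooled ChIP signal to local background, was 183 with estradiol (rank 10 of its list), 113 with LY500307 (rank 15) and 30.8 with ethanol (rank 74). How the pools were scaled is not given and the lists differ in length, so neither folds nor ranks are taken as a measure of change between treatments. The estradiol region ran from 40448531 to 40449135. Its width of 605 bp compared with 445 bp with LY500307 and 365 bp with ethanol, and the 3 summits lay within 17 bp of the estradiol one. The ERE shown above was 41, 34 and 24 bp downstream of the estradiol, LY500307 and ethanol summits.

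The same window around this summit is printed because the site is among the highest in every list. Capitals mark half-sites, here a TGACC and the left arm of the ERE.
IGFBP4 intron 1, chr17:40448733-40448933: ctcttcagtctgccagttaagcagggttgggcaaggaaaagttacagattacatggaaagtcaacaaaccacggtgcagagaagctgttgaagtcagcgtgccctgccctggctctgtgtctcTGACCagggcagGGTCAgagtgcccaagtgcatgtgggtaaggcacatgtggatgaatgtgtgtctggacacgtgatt
Over the whole estradiol list the ERE centre lay a median of 15 bp from the summit, and 72.2% of EREs were within 25 bp. The IGFBP4 copy is therefore farther from its summit than most.

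The other 9 estradiol regions of the IGFBP4 window were weaker, at folds of 4.55 to 36.8. Near the gene start, a region with its summit 0.244 kb inside the gene, in the 5' untranslated part of exon 1, had a fold of 11.2, and the overlapping LY500307 region had 6.83. Another 3 regions in intron 1, at 0.716, 1.2 and 2.18 kb, had folds of 5.0, 8.0 and 4.55 and appeared with estradiol alone. Upstream, the ERE-bearing region at 4.09 kb had a fold of 11.6. A further region 25.8 kb upstream (fold 6.54) was in the promoter of TOP2A, the topoisomerase gene, and is counted for IGFBP4 by distance. Downstream, a region 16.8 kb from the gene start reached 32.1 with estradiol, and the overlapping LY500307 region 5.39. A region at 30.3 kb, with a transcription start of the tensin gene TNS4 nearest, had 36.8 and 7.82. The region in intron 6 of TNS4, 39.1 kb away, had a fold of 10.2 with estradiol and no counterpart. Among these 9 weaker regions, 3 were in the LY500307 list and none was in the ethanol list.

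IGFBP1 and IGFBP3 encode, in turn, a binding protein known for its control by insulin and the main carrier of IGFs in blood. Their common window held 6 estradiol, 2 LY500307 and 1 ethanol region. The density of estradiol regions was 5.70 per 100 kb for IGFBP1 and 5.47 for IGFBP3, values that 7.65% and 8.42% of protein-coding genes reached. The strongest region was intergenic, 11.8 kb upstream of IGFBP1 and 45.3 kb downstream of the IGFBP3 start, at chromosome 7, 45876157 to 45876835. It was in all 3 lists. Estradiol gave a fold of 43.7 (rank 2703), LY500307 one of 19.1 (rank 1878) and ethanol one of 10.1 (rank 736). The nearest transcription start, 3.46 kb away, was that of CCDC201. Its ERE lay 58, 52 and 28 bp from the estradiol, LY500307 and ethanol summits. At both ERE sites found in all 3 lists the ethanol summit was the closest to the element and the estradiol summit the farthest. The summits themselves differed there by at most 30 bp. The other shared ERE sites were in the estradiol and LY500307 lists only. In exon 1 of IGFBP4 the LY500307 summit was the closer, and in intron 2 of IGF1R the estradiol summit was.

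The IGFBP3 start had its own region, with the summit 0.326 kb inside the gene body and within the promoter of an annotated IGFBP3 transcript. It was seen with estradiol at a fold of 22.0 and with LY500307 at 7.24. The IGFBP1 start had a region in coding exon 1, 0.439 kb into the gene, at a fold of 12.9 in the estradiol list and with no overlapping region in the other lists. The remaining 3 regions lay 3.05, 7.67 and 15.9 kb upstream of IGFBP1 and had folds of 7.20, 7.15 and 21.4 with estradiol alone. The last of them was inside CCDC201.

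IGFBP6, whose product prefers IGF2 over IGF1, had the second strongest region of the 10 genes and no ERE there. The region, in intron 1 at 2.0 kb from the gene start, spanned chromosome 12 from 53099214 to 53099651. Estradiol gave it a fold of 76.0 (rank 1164) and LY500307 one of 30.4 (rank 967), and no ethanol region overlapped it. Its closest match to the palindrome had 3 mismatches. Among the 1165 estradiol regions at or above this fold, 21.2% held an ERE, so most strong regions lacked one by this count. The window around the summit is printed to show the elements that it held. Capitals mark 2 half-sites (GGTCA), 1 AP-1 element (TGACTCA, here on the minus strand) and 1 TEAD element (GGAATG, also on the minus strand).
IGFBP6 intron 1, chr12:53099333-53099533: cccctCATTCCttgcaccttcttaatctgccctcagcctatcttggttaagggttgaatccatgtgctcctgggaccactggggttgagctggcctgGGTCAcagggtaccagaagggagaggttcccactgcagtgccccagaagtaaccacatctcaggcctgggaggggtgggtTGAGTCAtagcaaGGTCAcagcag
A match is a description of the letters and not evidence of binding by these factors. Windows of this length held a half-site in 71.2%, an AP-1 element in 13.8% and a TEAD element in 16.3% of all estradiol regions. The other IGFBP6 region, 2.24 kb upstream, had a fold of 7.0 and was in the estradiol list alone.

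IGFBP7, a matrix-associated protein that binds IGFs weakly, had 4 estradiol regions and 1 LY500307 region, all of moderate or low fold. The highest, 16.1, was in intron 1 at 28.8 kb from the gene start (chromosome 4, 57081358 to 57081706), and a second intron 1 region at 32.9 kb had 8.39. A region 4.74 kb upstream had 13.5. At the gene start the estradiol region (fold 7.0) and the LY500307 region (fold 5.44) overlapped, but their summits were 297 bp apart, the LY500307 one in coding exon 1. None of the 4 held an ERE.

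IGFBP2 and IGFBP5, which encode binding proteins expressed in many tissues, had 1 region between them. It lay in intron 1 of IGFBP5, 10.7 kb from that gene's start and 20.5 kb past the end of IGFBP2 (chromosome 2, 216684730 to 216685003), and its fold in the estradiol list was 11 (rank 11680). Neither the LY500307 nor the ethanol list held a region in this window. The densities, 0.760 per 100 kb for IGFBP2 and 0.810 for IGFBP5, were below the median of all genes. Measured from IGFBP2, the nearest LY500307 summit was 133.8 kb away.

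Of the receptors, IGF1R had 6 estradiol regions and 1 LY500307 region in a window of 416 kb, at 1.44 estradiol regions per 100 kb. The strongest was in intron 2 at 241.8 kb from the gene start, where an annotated shorter IGF1R transcript starts 24 bp downstream of the summit. Estradiol gave a fold of 23.2 here and LY500307 one of 9.60. This region held an ERE and an AP-1 element. At the gene start 3 regions, 1.04 kb upstream and 1.27 and 1.61 kb inside, had folds of 4.47, 5.5 and 5.81, were 76.1% to 80.1% G and C, and were in the estradiol list alone. The other 2, at 79.2 and 258.0 kb, had folds of 7.15 and 9.56.

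IGF2R had 4 estradiol and 2 LY500307 regions. The strongest, in intron 1 at 12.7 kb spanned chromosome 6 from 159981532 to 159981988. Estradiol gave it a fold of 39.5 (rank 3087), and LY500307 gave 13.7 (rank 2837). Like the IGFBP6 region it had no ERE, and its sequence is shown for that contrast with IGFBP4. It held 1 half-site, in capitals.
IGF2R intron 1, chr6:159981664-159981864: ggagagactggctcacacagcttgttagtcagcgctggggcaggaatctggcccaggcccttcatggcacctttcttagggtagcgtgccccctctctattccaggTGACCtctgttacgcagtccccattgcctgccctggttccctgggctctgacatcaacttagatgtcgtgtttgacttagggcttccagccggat
The ERE of IGF2R was instead in a weaker intron 1 region at 18.6 kb, with a fold of 11 and no counterpart in the other lists. The region at the gene start had 9.50 with estradiol and 5.86 with LY500307, with summits 329 bp apart. A region 25.5 kb upstream had 9.0.

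INSR, the insulin receptor gene, had no region in any list, in a window of 282 kb on chromosome 19. Of the 1705 protein-coding genes at least as long as INSR, 24.1% had no estradiol region, 45.2% no LY500307 region and 74.0% no ethanol region, so an empty window was not rare. The nearest estradiol summit lay 96.9 kb upstream of the gene (fold 10.9), the nearest LY500307 summit 100.4 kb from it and the nearest ethanol summit 165.7 kb from it.

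**Figure D2:**
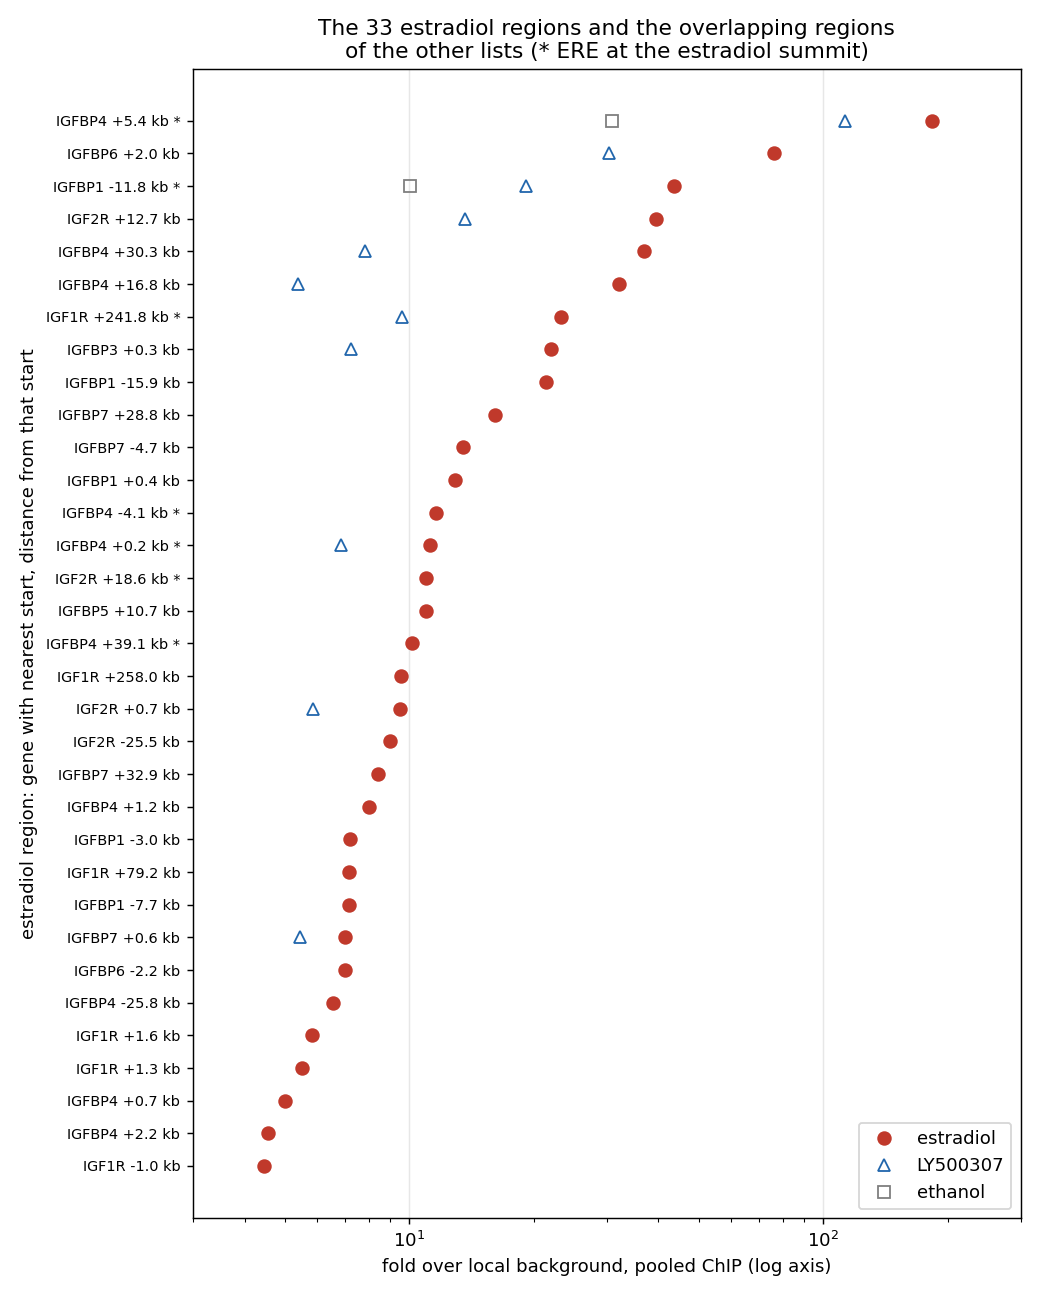
Fold over local background (x axis, log scale) of the 33 estradiol regions (filled circles) and of the overlapping LY500307 (triangles) and ethanol (squares) regions, 1 row per region named by the gene with the nearest start among the 10; a star marks an ERE at the estradiol summit. The 8 rows of highest estradiol fold all have a triangle, and squares are seen in 2 rows.

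Of the 33 estradiol regions 11 (33.3%, 19.8 to 50.4) overlapped an LY500307 region, against 33.8% of the whole list, and 2 (6.06%) overlapped an ethanol region, against 9.26%. These shares are close to the background. The 8 estradiol regions of highest fold were all among the 11, and the median fold was 32.1 for the 11 and 8.20 for the other 22. The whole estradiol list was alike in this: 93.3% of its regions at or above the fold of the eighth were in the LY500307 list and 16.9% of those below, with median folds of 27.7 and 7.59 for shared and unshared regions. For ethanol the order by fold did not hold, since the IGFBP6 region at 76.0 had no counterpart and the weaker one upstream of IGFBP1 had one. Of all estradiol regions at or above the IGFBP6 fold, 78.5% overlapped an ethanol region. The 3 shared regions of lower fold lay within 0.664 kb of the start of IGFBP4, IGFBP7 or IGF2R. All 11 LY500307 regions overlapped an estradiol region (91.9% in the whole list), and so did both ethanol regions (87.0%). At 9 of the 11 sites the estradiol and LY500307 summits were at most 61 bp apart. The median fold of the regions near the 10 genes was 10.2 with estradiol and 7.82 with LY500307, beside 9.50 and 8.46 over the whole lists. Of the 33 estradiol regions 2 were in the highest 10% of the list by fold, those in intron 1 of IGFBP4 and of IGFBP6.

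An ERE was at 4 of the 11 LY500307 regions, against 15.7% of that list, and at both ethanol regions, against 15.0%. All of these are elements already counted with estradiol, at the same positions, so the counts are not independent of the estradiol one. In the estradiol list 4 of the 11 regions shared with LY500307 held one and 3 of the other 22 did. The Wilson intervals of these 2 shares, 15.2% to 64.6% and 4.75% to 33.3%, overlap. The same split was not counted over the whole list, and the shared regions were the stronger ones. Among all estradiol regions at or above the fold of the IGFBP3 promoter region 21.8% held an ERE, against 13.8% of the whole list. Half-sites were at 25 of the 33 estradiol regions (75.8%, whole list 71.2%). AP-1 elements were at 3 (9.09%, whole list 13.8%) and TEAD elements at 7 (21.2%, whole list 16.3%). The forkhead element TGTTTAC was at none (whole list 1.67%), which with 33 regions allows up to 9.09%. In the LY500307 list it was at 1 of 11, the IGF1R intron 2 site, whose LY500307 summit lay 15 bp from the estradiol one.

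The regions at gene starts differed in base composition from those farther away. Of the 33 estradiol regions, 11 had the summit within 2 kb of the start of 1 of the 10 genes. Their median content of G and C was 71.1%, the SP1 element GGGCGG was at 6 of them, an ERE at 1, and the median fold was 8.0. The 22 others had 54.7% G and C, the SP1 element at 2, an ERE at 6 and a median fold of 11. These 22 included sites at other starts, such as the region in the TOP2A promoter, which held 1 of the SP1 elements. The whole estradiol list, split by the starts of all protein-coding genes instead, showed a similar pattern. Its regions within 2 kb of any protein-coding gene start had a median of 68.7% G and C, SP1 elements at 49.6% and an ERE at 4.34%, and the others had 51.7%, 11% and 17.0%. Whether base composition plays a part in these shares was not tested. By position, 20 of the 33 summits lay inside the body of 1 of the 10 genes and 14 of these in its intron 1. The bodies are part of the window that selected the regions, and no such share was counted over the whole list. These 2 counts therefore show no preference for gene bodies or for intron 1. For 6 of the 33 the nearest transcription start belonged to another gene: CCDC201, TOP2A or TNS4.

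**Figure D3:**
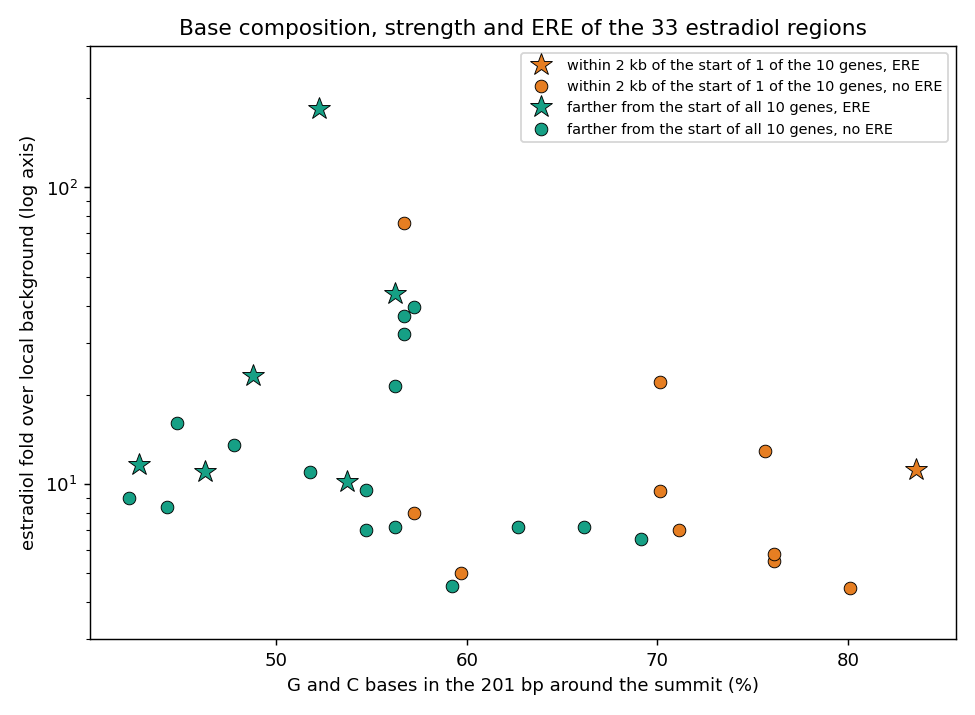
Share of G and C bases in the window around each of the 33 estradiol summits (x axis) against the fold over local background (y axis, log scale); colour separates the 11 regions within 2 kb of the start of 1 of the 10 genes from the other 22, and stars mark an ERE. The ERE in exon 1 of IGFBP4 is the star at the highest content of G and C, and the other 6 stars lie below 60%.

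The count depends on the limit of 50 kb. The farthest estradiol regions inside it were 35.7 and 39.8 kb past the end of IGFBP3, with folds of 43.7 and 21.4, and both also lay closer to IGFBP1. Just outside it, for the 10 genes, lay 2 strong sites found in all 3 lists. One was 51.3 kb past the end of IGF1R, where the estradiol list gave 90.4, the LY500307 list 50.6 and the ethanol list 11.7. The other, 52.3 kb past the end of IGFBP4, had folds of 99.6, 27.3 and 6.77 and an ERE with 1 mismatch. The transcription start nearest to the first was that of PGPEP1L and to the second that of TNS4.

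The rest of the pathway was counted in the same way over 32 other genes. With estradiol 27 had a region, with LY500307 20 and with ethanol 9, that is 84.4%, 62.5% and 28.1%, beside the shares of all genes given above. The 4 genes with the highest estradiol fold were IGF2, INS, STC1 and IGF2BP1. IGF2 and INS, the genes of a growth factor and of insulin, share a site in an intron of their neighbour TH, the tyrosine hydroxylase gene, 10.8 kb upstream of the IGF2 start. Its folds were 148 with estradiol, 63.2 with LY500307 and 9.83 with ethanol. STC1, which encodes a stanniocalcin that inhibits the protease PAPP-A, had a site 57.6 kb from its start with 102.5, 23.2 and 7.33. IGF2BP1, which encodes an IGF2 mRNA-binding protein, had a site nearest to B4GALNT2 with 92.7, 37.2 and 7.07. PAPPA itself, named here after its values were seen because PAPP-A cleaves IGFBP4, had a site 3.32 kb upstream with an ERE of 1 mismatch and folds of 32.4, 23 and 7.63.

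By role, 2 of 3 ligand genes, both IGFALS (the acid-labile subunit that carries IGF complexes in blood) and IGFBPL1, and 4 of 5 genes of binding-protein proteases and their inhibitors had an estradiol region. So did INSRR, the gene of a related receptor, 5 of 7 adaptor genes and 3 of 3 genes of IGF2 mRNA-binding proteins. Of all protein-coding genes 74.5% had one by the same count, and these groups are too small to tell apart from that share. No list held a region within 50 kb of the ligand gene IGF1, the protease gene PAPPA2 or the adaptor genes IRS2 and IRS4. For IGF1 this rests on the limit, since the nearest summit of each list lay 53.3 kb from the gene body. The folds there were 74.5 with estradiol, 26.2 with LY500307 and 7.497 with ethanol. The nearest estradiol summit was 144.2 kb from PAPPA2, 66.3 kb from IRS2 and 323.1 kb from IRS4.

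**Figure D4:**
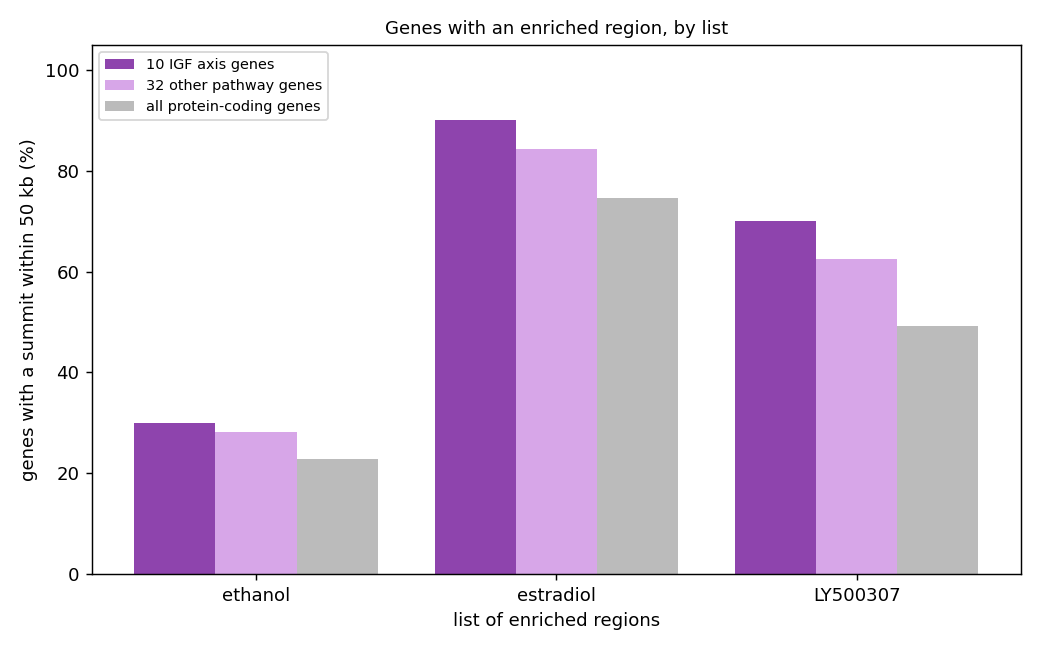
Share of genes (y axis, percent, from 0) with a summit within 50 kb of the gene body in each of the 3 lists (x axis), for the 10 genes, the 32 other pathway genes and all protein-coding genes. In each list the bar of the 10 genes is the highest and the bar of all genes the lowest, with 10 genes of which 2 pairs share their regions.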

How the data were processed

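ChIP-seq of Flag-tagged ER-beta covered 12 ChIP and 9 input libraries in 3 treatments. Bowtie2 2.2.6, MACS2 2.1.1.20160309, DiffBind and hg38 are named in the submitters' processing notes, without a role. The authors deposited 1 narrowPeak list for each treatment, named in the labels of its 4 ChIP libraries. The protocol in the labels speaks of triplicates, and how many libraries were pooled is not given in the sources used here. The deposited fold is the authors' ratio of ChIP signal to local background, and the deposited −log10 q is that of their peak caller. Sequencing depth is unknown from the lists. Records outside the assembled autosomes and X and Y were dropped, which left the regions analysed (26861 of 26896 estradiol, 10045 of 10059 LY500307 and 2905 of 2911 ethanol records).

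Ranks are by fold, with ties at the best rank. Regions overlapping by at least 1 bp were called shared. Summits were assigned to promoters (from 1000 bp before to 100 bp after a protein-coding start), exons, introns or intergenic DNA of GENCODE 44, and sequences came from hg38. Motifs were sought on both strands, up to 100 bp from the summit. Python 3.11.15, pandas 2.3.3, scipy 1.17.1 and pysam 0.24.0 were used, and the motif and overlap searches were tested on simulated data. Named were all 10 genes, each gene's highest region per list, regions in all 3 lists or with an ERE, and of the other pathway genes the 4 with the highest fold and those without a region, apart from items that are not reported here. The genes and lists were chosen with earlier results of these data known. Alternatives were the window, stricter thresholds, lists of equal length, the overlap rule, the ERE rule, the gene model and ranks by −log10 q.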

Additional observations from a re-analysis of the deposited data

How the results depend on the processing

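No paired analysis was possible because each list pools its libraries, and no replicate could be left out for the same reason. Of 121 values under alternative settings, 99 stayed within 1.5 times the main count or within the main share's 95% Wilson interval. That interval is wide where regions are few. For the 2 ethanol regions it ran from 34.2% to 100%, so a fall from 100% to 60% or 50% counted as unchanged. The 99 values are therefore no measure of stability for such shares. A window of 100 kb took in 50 estradiol, 19 LY500307 and 5 ethanol regions. In the gene bodies alone there were 20 estradiol regions and 1 ethanol region, and 1 gene had an ethanol region. With the 2905 regions of highest fold from each list, 4 genes had 3 estradiol regions and 5 genes had 4 LY500307 regions. Among the 3 estradiol ones, 3 (100%) overlapped LY500307 and 2 (66.7%) ethanol regions. Ethanol regions overlapped 2 of the 4 LY500307 ones (50%). Of the 2703 estradiol regions at or above the fold of the region upstream of IGFBP1, 100% overlapped the full LY500307 list and 49.8% the ethanol list. At least 50% coverage of each region left 8 of the 11 LY500307 regions (72.7%) in the estradiol list. Whole-list shares were not counted for lists of equal length or for this coverage. Without a mismatch the ERE share near the 10 genes was 0% in all 3 lists. With up to 2 mismatches it was 39.4% with estradiol, against 44.6% of the whole estradiol list, and so no longer above the list share. Ranked by −log10 q, 4 of the 15 distinct regions that were the highest of a gene in a list moved by over 1.5 times, namely the IGFBP4 intron 1 region, at ranks 21, 31 and 36 with estradiol, LY500307 and ethanol, and the region upstream of IGFBP1, at 1705 with estradiol. The unknown depth, which can differ between the pools, limits every count of regions that a list lacks.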

Other observations

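Beyond the 50 kb limit, a stretch downstream of IGFBP4 between TNS4 and CCR7, the gene of a chemokine receptor, held several strong regions. Within 100 kb of the IGFBP4 body the estradiol list had regions at 61.1, 64.0 and 77.0 kb past its end with folds of 63.9, 100.5 and 69.2. LY500307 regions overlapped all of them, at 16.8, 25.5 and 12.2, and an ethanol region with a fold of 5.67 overlapped the one at 64.0 kb. None of the 3 held an ERE of at most 1 mismatch.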
